A study of Mus musculus with 12 samples.

Results

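The simple epithelial keratins *Krt7*, *Krt8*, *Krt18*, *Krt19*, *Krt20*, *Krt23* and *Krt80* were followed in LGR5–GFP-sorted cells of mouse liver cancer organoids. These 7 genes were taken by name from the 47069 genes of the count table, which also holds 47 other keratin genes. All 7 passed the filter on low counts and were among the 16157 genes tested. There were 4 groups with 3 libraries each: untreated LGR5-, untreated LGR5+, 5-FU-treated LGR5- and 5-FU-treated LGR5+ cells. All came from C57BL/6 mice of the genotype LGR5-DTRGFP+, in which the *Lgr5* promoter drives GFP and the diphtheria toxin receptor, and the organoids were grown from liver tumors induced by diethylnitrosamine. The sort therefore reads promoter activity and not the LGR5 protein, dead cells and CD45+ leukocytes were gated out, and no label says whether the 3 libraries of a group came from separate organoid lines or mice. *P* values then measure the spread between these libraries, which may be technical. The drug 5-FU, 5-fluorouracil, is an antimetabolite chemotherapy that blocks the making of thymidine nucleotides. Its dose and duration for the sequenced cells are not given in the sources used here.

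Keratins are the intermediate filament proteins of epithelia. A filament is built from pairs of an acidic type I chain and a basic type II chain, so that chains of both types are needed in a cell. K8 and K18 are the pair of simple, single-layered epithelia and the only keratins of normal hepatocytes, whereas bile duct cells add K7 and K19. K20 is best known from intestinal epithelium and urothelium, K23 from ductular reactions and stressed liver, and K80 from the cell margins of a wide range of epithelia. Type II members here were *Krt7*, *Krt8* and *Krt80*, and type I members were *Krt18*, *Krt19*, *Krt20* and *Krt23*. In the GRCm38 annotation, the type II cluster with *Krt80* (chr15:101347444-101370162, minus strand), *Krt7* (chr15:101411043-101430313, plus strand) and *Krt8* (chr15:101996698-102004482, minus strand) lies on chromosome 15. *Krt18* (chr15:102028180-102032027, plus strand) is next to *Krt8* on the opposite strand, although it codes for a type I chain. The other type I genes lie on chromosome 11: *Krt20* (chr11:99428403-99438150), *Krt23* (chr11:99477974-99493137) and *Krt19* (chr11:100140810-100148665), each on the minus strand.

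Sequence upstream of the start site is shown for members of contrasting behavior: the filament partners *Krt8* and *Krt18*, which were abundant in every library, *Krt20*, which was rare and had the largest fitted change in LGR5+ cells, and *Krt23*, which passed the threshold in neither population. RefSeq promoter entries (GRCm38.p6, 250 bases before to 50 after a start) matched 5 of the 7 members. Only the part outside annotated exons is printed, 5′ to 3′ on the gene's own strand, and capitals mark a TATAAA match.
Krt18 (chr15:102027966-102028179, plus strand): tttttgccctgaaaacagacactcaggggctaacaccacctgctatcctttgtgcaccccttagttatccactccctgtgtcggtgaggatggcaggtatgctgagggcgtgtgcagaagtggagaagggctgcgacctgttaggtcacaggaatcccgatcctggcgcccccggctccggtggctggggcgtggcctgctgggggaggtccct
Krt8 (chr15:102004483-102004592, minus strand): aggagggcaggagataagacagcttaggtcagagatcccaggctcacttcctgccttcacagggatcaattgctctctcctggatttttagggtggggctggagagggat
Krt20 (chr11:99438154-99438403, minus strand): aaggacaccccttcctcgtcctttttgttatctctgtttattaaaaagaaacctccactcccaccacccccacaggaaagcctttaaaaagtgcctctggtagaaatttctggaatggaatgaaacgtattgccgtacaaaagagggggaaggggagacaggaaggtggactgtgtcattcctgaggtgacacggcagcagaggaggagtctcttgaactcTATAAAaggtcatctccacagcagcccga
Krt23 (chr11:99493138-99493370, minus strand): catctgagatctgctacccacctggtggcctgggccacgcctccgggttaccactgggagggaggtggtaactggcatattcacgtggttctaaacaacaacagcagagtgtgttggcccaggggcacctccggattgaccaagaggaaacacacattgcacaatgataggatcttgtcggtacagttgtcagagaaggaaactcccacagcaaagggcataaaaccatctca
The letters TATAAA were found in the *Krt20* window, with the first base 29 bases before the start, and 2 overlapping matches began 3 and 1 bases before the start of the *Krt8* entry, outside the stretch printed. TATAAA occurred in 13.6% of 32851 promoter windows of this length. The GC box GGGCGG occurred in 35.7% of them and, among the 5 members, only in *Krt7*, with 4 matches. TGANTCA, the letters bound by AP-1 factors, was in none of the 5 windows and in 7.81% of all. Both strands were searched, and a match describes letters, not a site in use.

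Counted reads per library ran from 13750591 to 19323514, so that a count of 0 would allow up to 0.155 to 0.218 CPM (counted reads scaled to a common library total) before normalization. Levels are given below as CPM after TMM normalization. *Lgr5* itself, the gene behind the sort, differed by a log2 fold change of -0.17 (SE 0.23, edgeR adjusted *P* = 1) between untreated LGR5+ and LGR5- cells and by 0.11 (SE 0.23, edgeR adjusted *P* = 0.842) after 5-FU. The libraries labelled LGR5- replicate 3 stood apart, with 6.93% (untreated) and 6.44% (5-FU) of their reads on mitochondrial genes against 1.47% to 3.08% in the other 10. General epithelial markers were present throughout (*Epcam* 674 CPM in 5-FU-treated LGR5- replicate 3, 1095 to 1481 CPM elsewhere). Of 10 hepatocyte markers, 5 had at most 3 reads in every library, among them *Hnf4a*, and *Alb* lay between 0.147 and 1.85 CPM. *Afp*, the alpha-fetoprotein gene of fetal liver and liver cancer, was present at 9.87 to 54.2 CPM. Lung alveolar type 2 markers were present in all libraries, and *Sftpc* differed between libraries of one group, with 15650 to 17320 CPM in untreated LGR5- replicates 1 and 2 and LGR5+ replicate 1 and 2616 to 6031 CPM in the other 9.

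Without drug, 5 of the 7 keratins were abundant and 2 were rare. Compared per kilobase of exon, the scale on which levels of different genes can be ordered, *Krt18* stood first with 882 ± 165 CPM per kilobase in untreated LGR5- cells (SD, n = 3) and 966 ± 40.9 in LGR5+ cells. Its lowest library lay above the highest library of the next gene in each untreated group. *Krt8*, *Krt23* and *Krt19* followed at 329 ± 134, 224 ± 5.57 and 208 ± 7.57 CPM per kilobase in LGR5- cells. The libraries of *Krt8* and *Krt23* overlapped, so that their order was not resolved, whereas *Krt19* lay just below *Krt23* in LGR5- cells on this scale and overlapped it in LGR5+ cells. *Krt7* came next at 93.9 ± 12.5 CPM per kilobase, followed at a distance by *Krt20* at 0.639 ± 0.357 and *Krt80* at 0.0844 ± 0.0425. *Krt80* rested on 6 to 14 reads per untreated library and *Krt20* on 9 to 34, so single libraries of these genes carry a large counting error. The length used matters for *Krt7*, *Krt80* and *Krt19*, whose longest transcript is shorter than their summed exons. Per kilobase of the longest transcript, *Krt19* stood at 245 and *Krt23* at 224 in LGR5- cells, with no overlap, so that the order of these genes turned. *Krt7* came to 162 on that scale and stayed below both.

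In treated cells the order changed in the middle. *Krt18* remained first, at 1884 ± 709 CPM per kilobase in LGR5- cells (SD, n = 3) and 2927 ± 588 in LGR5+ cells. *Krt19* now stood before *Krt8*, at 1064 ± 433 against 960 ± 505 CPM per kilobase in LGR5- cells and 1987 ± 445 against 1805 ± 340 in LGR5+ cells, but the libraries of the 2 genes overlapped in each population, as did those of *Krt18* and *Krt19* in LGR5- cells. *Krt23* and *Krt7* overlapped on this scale, at 368 ± 98.0 and 317 ± 164 CPM per kilobase in LGR5- cells and at 446.5 ± 27.1 and 655 ± 173 in LGR5+ cells. *Krt20* (3.14 ± 1.20 and 6.77 ± 0.481) and *Krt80* (0.258 ± 0.135 and 0.543 ± 0.0766) stayed far below the others, with no overlap between them. Per kilobase of the longest transcript, *Krt7* stood above *Krt23* in both populations, at 545 against 368 in LGR5- cells, where libraries overlapped, and at 1128 against 446.5 in LGR5+ cells, where they did not. On that scale *Krt18* and *Krt19* also overlapped in LGR5+ cells.

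5-FU-treated cells of each sorted population held more keratin RNA. Of the 7 keratins, 6 were higher after 5-FU in LGR5- cells and the same 6 in LGR5+ cells at an edgeR adjusted *P* under 0.05, and none was lower. Among all genes tested, 8.3% were called higher and 7.11% lower in LGR5- cells, and 9.66% higher and 6.37% lower in LGR5+ cells. *Krt23* was the member not called in either population. Every member's 3 treated libraries lay above its 3 untreated ones in both populations, against 13.7% of all genes in LGR5- cells and 22.3% in LGR5+ cells. The median log2 fold change of the 7 genes was 1.62 in LGR5- cells and 2.41 in LGR5+ cells, beside -0.05 and -0.02 over all genes tested. In a bulk library, more keratin RNA per cell and more cells that make keratin cannot be told apart. The plot of the levels by library shows these shifts gene by gene.

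**Figure D1:**
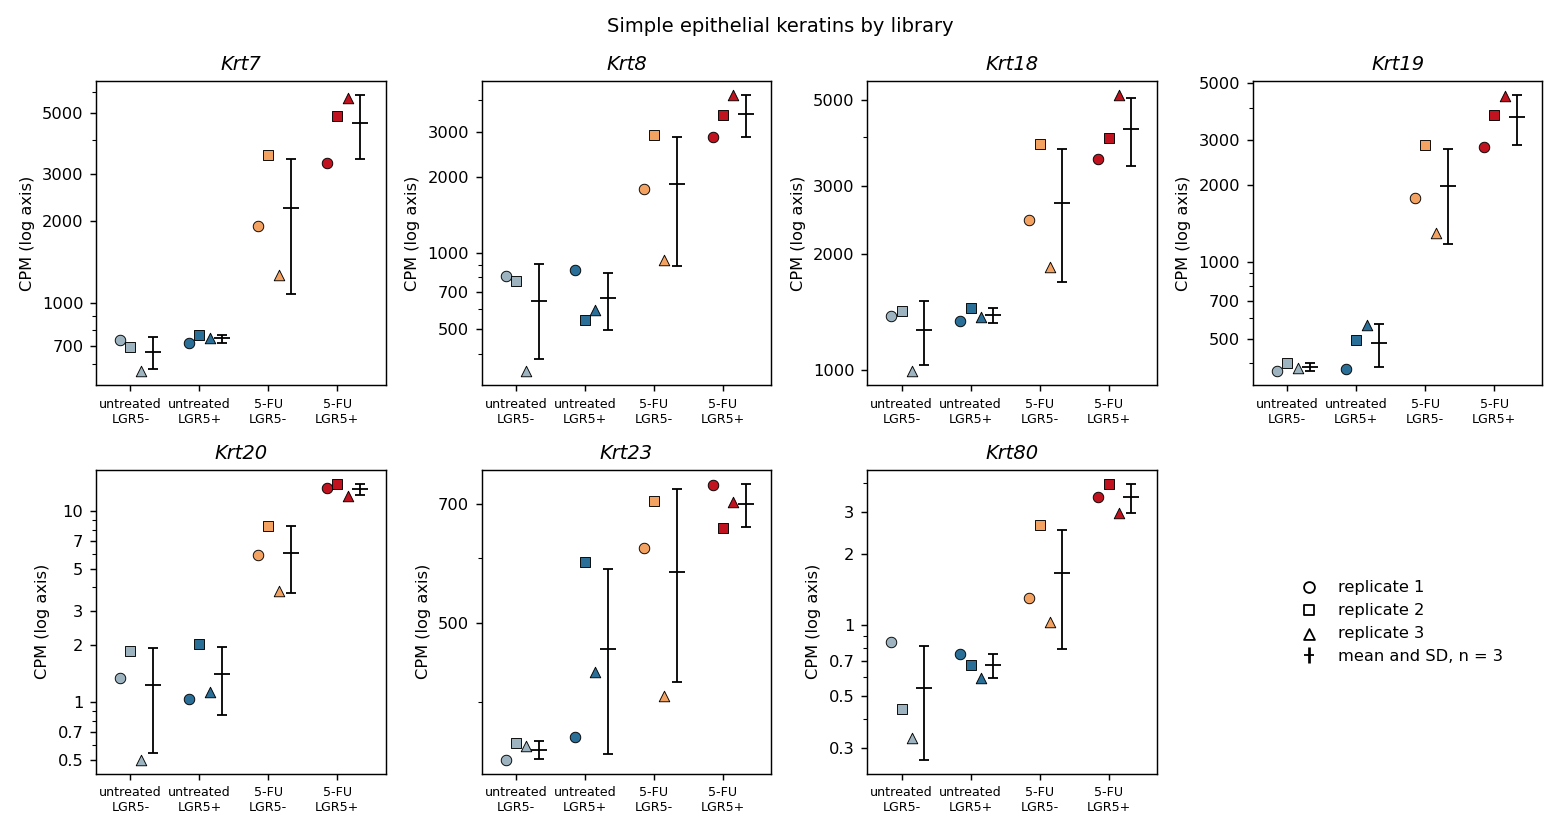
Level of each keratin (CPM, log axis) in the 12 libraries, by group; symbols are replicates 1 to 3, and the bar is the mean with its SD (n = 3). In every panel the 3 treated libraries of a population lie above its 3 untreated ones, and replicate 3 is the lowest of the 5-FU-treated LGR5- libraries.

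The filament partners *Krt8* and *Krt18* both rose, *Krt8* by the larger fitted fold. *Krt8* stood at 814, 778 and 341 CPM in untreated LGR5- replicates 1 to 3 and at 859, 542 and 596 CPM in untreated LGR5+ replicates. After 5-FU it stood at 1786, 2911 and 939 CPM in LGR5- cells and at 2877, 3517 and 4208 CPM in LGR5+ cells. The lowest treated library was LGR5- replicate 3, only slightly above the highest untreated one of its population. The fold was 2.92 in LGR5- cells (log2 1.54, SE 0.40, edgeR adjusted *P* = 0.0169) and 5.31 in LGR5+ cells (log2 2.41, SE 0.41, edgeR adjusted *P* = 0.0011). *Krt18*, the type I partner, read 1383, 1426 and 994 CPM in untreated LGR5- cells and 1338, 1452 and 1373 CPM in untreated LGR5+ cells. With the drug it read 2448, 3832 and 1843 CPM in LGR5- cells and 3504, 3969 and 5144 CPM in LGR5+ cells. The untreated LGR5+ libraries were close together, with a coefficient of variation of 4.23%, while the treated LGR5- libraries spread over 37.7%. *Krt18* was 2.14-fold higher in LGR5- cells (log2 1.10, SE 0.28, edgeR adjusted *P* = 0.0168) and 3.03-fold higher in LGR5+ cells (log2 1.60, SE 0.29, edgeR adjusted *P* = 0.00155). Per kilobase, the ratio of *Krt18* to *Krt8* was 2.93 ± 0.907 before and 2.11 ± 0.488 after 5-FU in LGR5- cells (SD, n = 3; two-sided exact permutation *P* = 0.3). In LGR5+ cells it went from 2.97 ± 0.777 to 1.62 ± 0.0722 (two-sided exact permutation *P* = 0.1, the smallest that 3 against 3 libraries allow).

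*Krt19* and *Krt7*, the keratins that bile duct cells add to this pair, showed the larger changes among the abundant members. *Krt19* codes for the smallest keratin, CK19, which is stained as a cholangiocyte marker in liver tumors. It read 373, 401 and 385 CPM in untreated LGR5- cells, the tightest set of values of that population beside *Krt23*, and 379, 493 and 564 CPM in untreated LGR5+ cells. After treatment it read 1772, 2859 and 1291 CPM in LGR5- cells and 2830, 3749 and 4477 CPM in LGR5+ cells. The groups were separated by a wide gap in each population. *Krt19* was 5.11-fold higher in LGR5- cells (log2 2.35, SE 0.30, edgeR adjusted *P* = 0.000168) and 7.70-fold higher in LGR5+ cells (log2 2.95, SE 0.31, edgeR adjusted *P* = 2.05e-05). For *Krt7*, the type II keratin of ducts and glands, the untreated libraries were 731.5, 692 and 563 CPM in LGR5- cells and 717, 766.5 and 746 CPM in LGR5+ cells. The treated libraries were 1916, 3511 and 1272 CPM in LGR5- cells and 3285, 4896 and 5673 CPM in LGR5+ cells, so that 1 LGR5+ library fell below the highest LGR5- library. The change was 3.37-fold in LGR5- cells (log2 1.75, SE 0.33, edgeR adjusted *P* = 0.00292) and 6.21-fold in LGR5+ cells (log2 2.64, SE 0.34, edgeR adjusted *P* = 0.000127). An annotated antisense gene, *Gm671*, shares 77 exon bases with *Krt7*, and reads of the 2 cannot be told apart without strand. *Gm36026* likewise shares 101 bases with *Krt8*, and *Gm35853* shares 263 with *Krt80*.

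The 2 rare members rose as well, from levels near the limit of detection. *Krt20* was counted 22, 34 and 9 times in untreated LGR5- cells (1.33, 1.86 and 0.499 CPM) and 18, 33 and 19 times in untreated LGR5+ cells (1.04, 2.03 and 1.13 CPM). After 5-FU it reached 5.94, 8.42 and 3.81 CPM in LGR5- cells and 13.2, 13.8 and 12.03 CPM in LGR5+ cells. Here the treated LGR5+ libraries varied by only 7.11% and did not overlap the treated LGR5- libraries. The fold was 4.91 in LGR5- cells (log2 2.30, SE 0.42, edgeR adjusted *P* = 0.0024) and 9.30 in LGR5+ cells (log2 3.22, SE 0.42, edgeR adjusted *P* = 0.000141). *Krt80*, whose product sits near desmosomes, was at 0.847, 0.438 and 0.333 CPM in untreated LGR5- cells and 0.750, 0.675 and 0.597 CPM in untreated LGR5+ cells. In treated cells it was at 1.29, 2.63 and 1.03 CPM (LGR5-) and 3.48, 3.96 and 2.98 CPM (LGR5+). Even in the highest library it had only 72 reads. *Krt80* was 3.07-fold higher in LGR5- cells (log2 1.62, SE 0.47, edgeR adjusted *P* = 0.0309) and 5.11-fold higher in LGR5+ cells (log2 2.35, SE 0.46, edgeR adjusted *P* = 0.00279).

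*Krt23* moved least. Its untreated libraries read 340, 356 and 353 CPM in LGR5- cells and 362.5, 594 and 436 CPM in LGR5+ cells. Treated libraries read 618, 705 and 407 CPM in LGR5- cells and 738, 654 and 704 CPM in LGR5+ cells. All treated libraries were above the untreated ones of their population, but the gap was small in both. The log2 fold change was 0.72 in LGR5- cells (SE 0.23, 95% confidence interval 0.22 to 1.22, edgeR adjusted *P* = 0.0503) and 0.59 in LGR5+ cells (SE 0.23, 0.09 to 1.09, edgeR adjusted *P* = 0.102). By DESeq2 both passed, with adjusted *P* = 0.00928 and 0.0492; over all alternatives the adjusted *P* ran from 0.00928 to 0.183 in LGR5- and from 0.0225 to 0.304 in LGR5+ cells. A call on *Krt23* thus turned on the test and libraries chosen, at a size of 1.65-fold in LGR5- and 1.51-fold in LGR5+ cells.

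**Figure D2:**
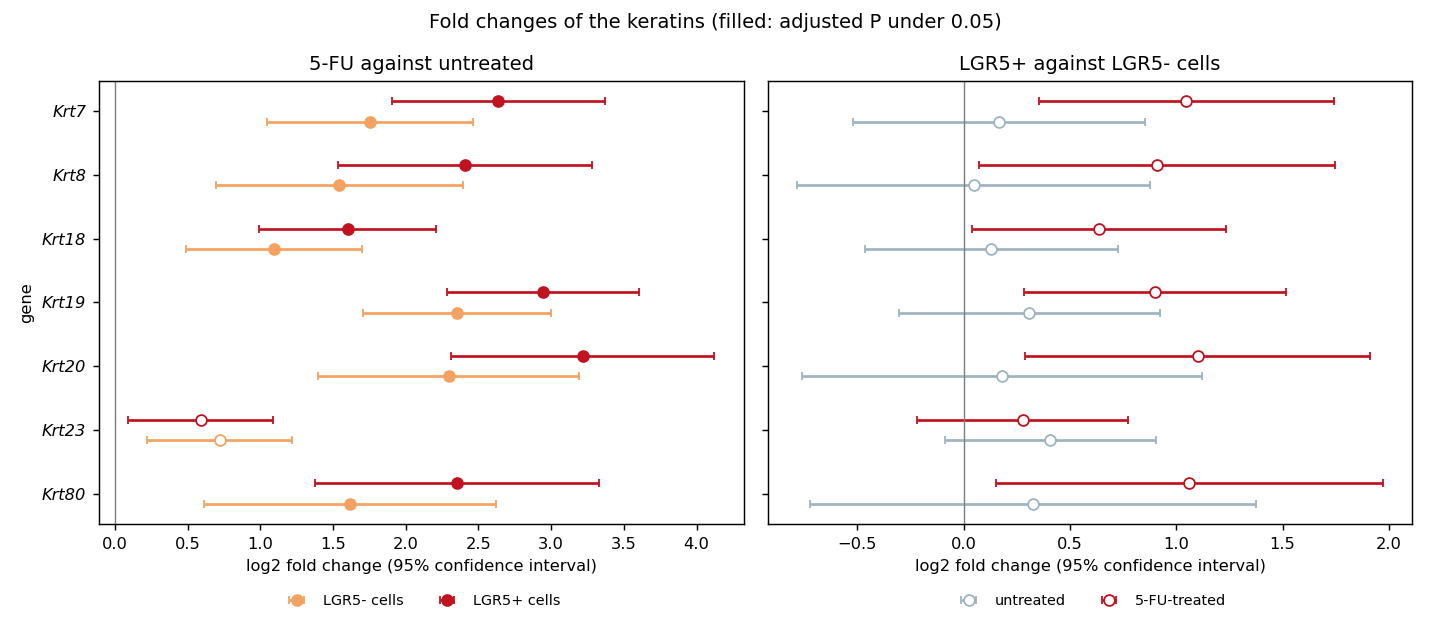
Log2 fold changes of the 7 keratins with 95% confidence intervals from the edgeR fit: left, 5-FU against untreated cells in each population; right, LGR5+ against LGR5- cells under each treatment. Filled points have an adjusted P under 0.05: 6 of 7 in each population on the left and 0 of 7 on the right, where after 5-FU the intervals of 6 genes lie above 0.

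In LGR5- cells 3 of the calls depended on single libraries or on the libraries fitted. Without 5-FU-treated LGR5- replicate 2, which held the highest value of its group for all 7 keratins, 3 of 7 were called, and *Krt8* (log2 1.08), *Krt18* (0.75) and *Krt80* (1.10) were not. *Krt80* also lost its call without untreated LGR5- replicate 2 or 3 (edgeR adjusted *P* = 0.103 and 0.0592, in a range of 0.00978 to 0.166 over its alternatives). A fit on the 6 LGR5- libraries alone called 3 as well, again without *Krt8*, *Krt18* and *Krt80*, although their log2 fold changes were nearly the same as with all libraries (1.55, 1.10 and 1.62). With both LGR5- replicate 3 libraries left out, all 7 were called in each population. In LGR5+ cells no single library changed the count of 6.

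Between untreated LGR5+ and LGR5- cells, 0 of 7 keratins were called by edgeR (adjusted *P* = 1 for each, 0% of all genes called) and 0 by DESeq2 (0% of all genes). At an unadjusted *P* under 0.05 there were 0 of 7, beside 1.32% of all genes. Log2 fold changes ran from 0.05 for *Krt8* to 0.41 for *Krt23*. The intervals left room for moderate differences in either direction, from -0.78 to 0.88 for *Krt8* and from -0.31 to 0.92 for *Krt19*. *Krt23* was the 1 member whose LGR5+ libraries all lay above the LGR5- libraries, which held for 2.7% of all genes. Untreated LGR5- replicate 1 and LGR5+ replicate 1 were the most alike of all pairs of libraries, with a chi-square per degree of freedom of 4.42.

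After 5-FU, all 7 keratins had a higher fitted level in LGR5+ than in LGR5- cells, but none was called: 0 of 7 by edgeR (0% of all genes) and 0 of 7 by DESeq2 (0.495% of all genes). At an unadjusted *P* under 0.05 there were 6 of 7, against 13% of all genes. The log2 differences were 1.05 for *Krt7* (95% confidence interval 0.35 to 1.74), 0.91 for *Krt8* (0.07 to 1.75), 0.64 for *Krt18* (0.04 to 1.23) and 0.90 for *Krt19* (0.28 to 1.52). *Krt20* differed by 1.10 (0.29 to 1.91), *Krt80* by 1.06 (0.15 to 1.97) and *Krt23* by 0.28 (-0.22 to 0.77). These sizes rested in part on 2 LGR5- libraries, replicate 3, which was the lowest of its group for all 7 genes and stood apart in mitochondrial share and *Epcam*, and replicate 2, which was the highest. Without replicate 3 the log2 differences fell to between 0.04 (*Krt23*) and 0.83 (*Krt20*), with 0.56 for *Krt8*, 0.39 for *Krt18*, 0.64 for *Krt19* and 0.74 for *Krt7*. Without replicate 2 they were larger, between 0.46 (*Krt23*) and 1.58 (*Krt80*), with 1.38 for *Krt8* and 0.98 for *Krt18*. Over the 7 genes the edgeR adjusted *P* ran from 0.344 to 0.572, and the DESeq2 adjusted *P* from 0.0964 for *Krt7* to 0.586 for *Krt23*. Only *Krt20* and *Krt80* had LGR5+ libraries entirely above the LGR5- libraries, which held for 14.2% of all genes. Libraries of the same replicate number were also compared as pairs, although no label pairs them. In 3 of 3 such pairs, 6 of the 7 keratins were higher in LGR5+ cells, as were 29.6% of all genes. *Krt23* was higher in 2 of 3.

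Whether 5-FU acted more strongly in LGR5+ cells was tested as the difference between the responses. It was 0.88 for *Krt7* (SE 0.46, 95% confidence interval -0.09 to 1.86), 0.86 for *Krt8* (SE 0.55), 0.50 for *Krt18* (SE 0.39), 0.59 for *Krt19* (SE 0.41), 0.92 for *Krt20* (SE 0.58), 0.74 for *Krt80* (SE 0.66) and -0.13 for *Krt23* (SE 0.33) on the log2 scale. None of the 7 passed: 0 by edgeR (adjusted *P* = 0.9998 for each, 0% of all genes called), 0 by DESeq2 (0% of all genes) and 0 at an unadjusted *P* under 0.05 (1.57% of all genes). The larger folds in LGR5+ cells were therefore not shown to differ from those in LGR5- cells at this number of libraries, and the intervals do not show that they were equal.

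Together the 7 genes took a growing part of the library. They held 0.331 ± 0.0307% of the counted reads in untreated LGR5- cells (SD, n = 3) and 0.963 ± 0.424% after 5-FU, and 0.380 ± 0.0183% and 1.60 ± 0.283% in LGR5+ cells. Each of these comparisons had a two-sided exact permutation *P* = 0.1, the smallest possible here, and 0.143 after adjustment over 10 such tests. The make-up of the set also shifted, as shown by shares of the summed CPM per kilobase. *Krt18* gave 48.8% to 51.3% of the sum in the 6 untreated libraries and 35.9% to 44.2% in the 6 treated ones. *Krt19* went from 10.6% to 15.6% in untreated libraries up to 22.5% to 26.2% in treated ones. *Krt23* went the other way, from 11.4% to 18.6% down to 4.79% to 9.32%, and *Krt7* reached 6.22% to 9.02% after 5.08% to 5.79%. For these 4 genes no treated library overlapped an untreated one. The share of *Krt23* fell while its own level did not, since the sum it is taken of was larger. Its ratio to *Krt18* went from 0.260 ± 0.0572 to 0.201 ± 0.0316 in LGR5- cells, with overlapping libraries (two-sided exact permutation *P* = 0.3, adjusted *P* = 0.333), and from 0.305 ± 0.0645 to 0.157 ± 0.0342 in LGR5+ cells (two-sided exact permutation *P* = 0.1, adjusted *P* = 0.143).

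The ratio of *Krt19* to *Krt18*, taken within a library and so free of the scaling between libraries, summarized the shift. It was 0.209, 0.218 and 0.300 in untreated LGR5- cells, and 0.561, 0.578 and 0.542 after 5-FU. In LGR5+ cells it was 0.219, 0.263 and 0.318 before and 0.626, 0.732 and 0.674 after. The treated LGR5- libraries, which differed 2.21-fold in *Krt19* itself, lay close together in this ratio. Among untreated libraries it was 0.209 to 0.219 in the 3 with high *Sftpc* and 0.263 to 0.318 in the 3 with low *Sftpc*, and *Sftpc* was low in all treated libraries, whose lowest ratio was 0.542. The part of this difference in the shift was not tested. The mean ratio was 2.31 times as high in LGR5- and 2.54 times as high in LGR5+ cells (two-sided exact permutation *P* = 0.1 in each, adjusted *P* = 0.143). Type I over type II chains per kilobase came to 3.33 ± 0.959 in untreated and 2.77 ± 0.549 in treated LGR5- cells (two-sided exact permutation *P* = 0.5), and to 3.52 ± 0.903 and 2.19 ± 0.103 in LGR5+ cells (*P* = 0.1 in the same exact test).

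**Figure D3:**
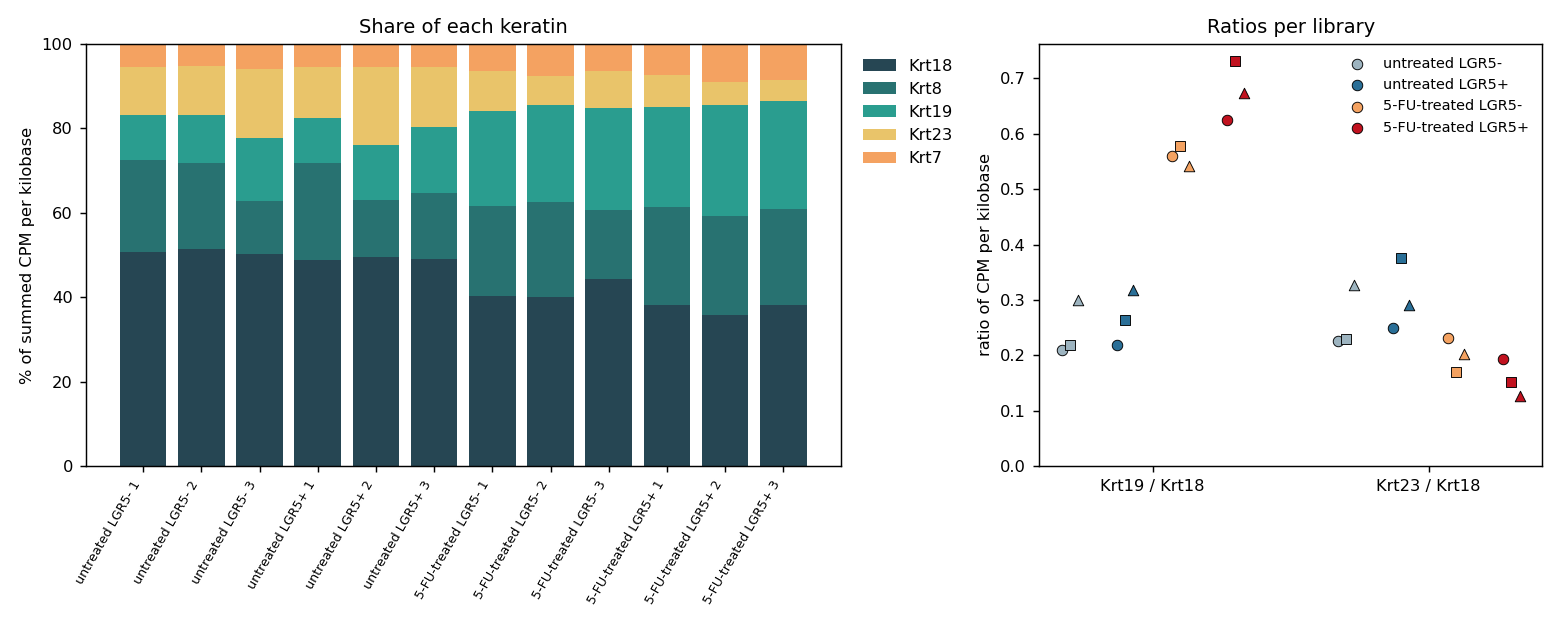
Left, share of each abundant keratin in the summed CPM per kilobase of the 7 genes, 1 bar per library in order of group and replicate (*Krt20* and *Krt80* are too rare to draw). Right, ratios of *Krt19* and of *Krt23* to *Krt18* per library: the *Krt19* ratio is 0.209 to 0.318 without and 0.542 to 0.732 with 5-FU.

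Libraries of one group did not vary alike. In 5-FU-treated LGR5- cells, replicate 2 was the highest and replicate 3 the lowest for all 7 keratins, and the highest library exceeded the lowest 2.76-fold for *Krt7*, 3.10-fold for *Krt8* and 2.08-fold for *Krt18*. The coefficient of variation of the abundant members in that group was 26.6% to 52.6%, beside a median of 21.8% for all genes at or above 100 CPM. The rare *Krt20* and *Krt80* varied by 38.1% and 52.1%, beside a median of 24.5% over all tested genes. In treated LGR5+ cells the abundant members spread by 6.07% to 26.4%, where genes at or above 100 CPM had a median of 11.8%. There *Krt20* and *Krt80* spread by 7.11% and 14.1%, beside a median of 15.1% over all tested genes. Treated LGR5- replicate 3 also had the high mitochondrial share and the low *Epcam* given above; their part in its low keratin values was not tested. Among untreated libraries, the member that varied most at a high level was *Krt8*, from 341 to 859 CPM. Its 3 highest values, 778 to 859 CPM, were in the 3 libraries with the high *Sftpc*, and its 3 lowest, 341 to 596 CPM, in those with the low. *Krt18* did not split in this way, so the *Krt18* to *Krt8* ratio was 2.12 to 2.50 in the former and 3.14 to 3.97 in the latter. The *Krt23* to *Krt18* ratio split likewise, with 0.226 to 0.249 in the former and 0.292 to 0.376 in the latter. Treated libraries, all low in *Sftpc*, had ratios of 1.54 to 2.67, and the part of *Sftpc*-high libraries in the *Krt8* values was not tested.

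Over the 12 libraries the log2 levels of *Krt7*, *Krt8*, *Krt18*, *Krt19*, *Krt20* and *Krt80* followed each other with Pearson's r of 0.93 to 0.99 in each pair, and *Krt23* followed them with 0.80 to 0.87. These values describe 12 libraries that share 2 treatments and 2 populations, and carry no test. Outside the keratins, the genes most like *Krt7* were *Ctsd* (r = 0.996), which codes for the lysosomal protease cathepsin D, and *Sdc1* (0.991), a cell-surface proteoglycan of epithelia. *Krt8* was followed by *Fam107b* (0.989) and *Cldn3* (0.988), a tight junction claudin. *Cldn3* (0.990) and *Cnn2* (0.992), an actin-binding calponin, were most like *Krt18*, together with *Anxa2* (0.987). For *Krt19* these were *Ephx1* (0.995), an epoxide hydrolase of drug metabolism, *Plin2* (0.993), which coats lipid droplets, and *Plpbp* (0.992). *Krt20* was nearest to *Ccnd1* (0.990), the G1 cyclin D1, *Krt80* to *Laptm4a* (0.983), and *Krt23*, with lower values, to *Spty2d1* (0.963).

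The rest of the keratin family gave the setting for these changes. Of the 47 other keratin genes, 20 were tested. After 5-FU 16 were higher in LGR5- cells and 15 in LGR5+ cells, with none lower. Among all genes tested, 8.3% were called higher in LGR5- and 9.66% in LGR5+ cells. Some of the 20, such as *Krt6b*, *Krt16*, *Krt42* and *Krt76*, passed the filter only through treated libraries. These had 0 to 13 untreated reads per population. For such genes a call in the higher direction was largely fixed by the filter. Of the 20, 11 were keratins of stratified and stressed epithelium, *Krt6b*, *Krt16* and *Krt76* among them, and 10 of the 11 were higher in each population. Their median log2 fold change was 3.96 in LGR5- and 4.97 in LGR5+ cells. Genes with no untreated read had lower bounds above these medians (5.86 in LGR5- cells, 5.61 and 7.79 in LGR5+ cells). Setting such genes to the bound therefore could not move the medians. *Krt6a*, which is induced in wounded epidermis, went from 0.577 ± 0.300 to 37.4 ± 11.5 CPM in LGR5- cells (SD, n = 3; log2 5.98, SE 0.58, edgeR adjusted *P* = 2.95e-05) and from 2.13 ± 1.43 to 143 ± 54.7 CPM in LGR5+ cells (log2 6.07, SE 0.53, edgeR adjusted *P* = 8.44e-06). *Krt17* went from 9.29 ± 2.57 to 108 ± 54.7 CPM in LGR5- cells (log2 3.54, SE 0.42, edgeR adjusted *P* = 0.000114) and from 11.96 ± 4.48 to 301.5 ± 111.5 CPM in LGR5+ cells (log2 4.66, SE 0.44, edgeR adjusted *P* = 1.25e-05). *Krt16*, a type I partner of *Krt6a*, went from 0.261 ± 0.131 to 49.6 ± 20.7 CPM in LGR5+ cells (log2 7.54, SE 0.68, edgeR adjusted *P* = 1.09e-05); in LGR5- cells it had 2 reads in all 3 untreated libraries together and 10.2 ± 6.15 CPM after 5-FU. The 7 simple keratins nevertheless held most keratin reads: 96.9 ± 1.02% in untreated and 92.5 ± 0.461% in treated LGR5- cells, and 96.5 ± 1.06% and 88.8 ± 2.25% in LGR5+ cells. The plot of the whole family sets the fold changes of both populations side by side.

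**Figure D4:**
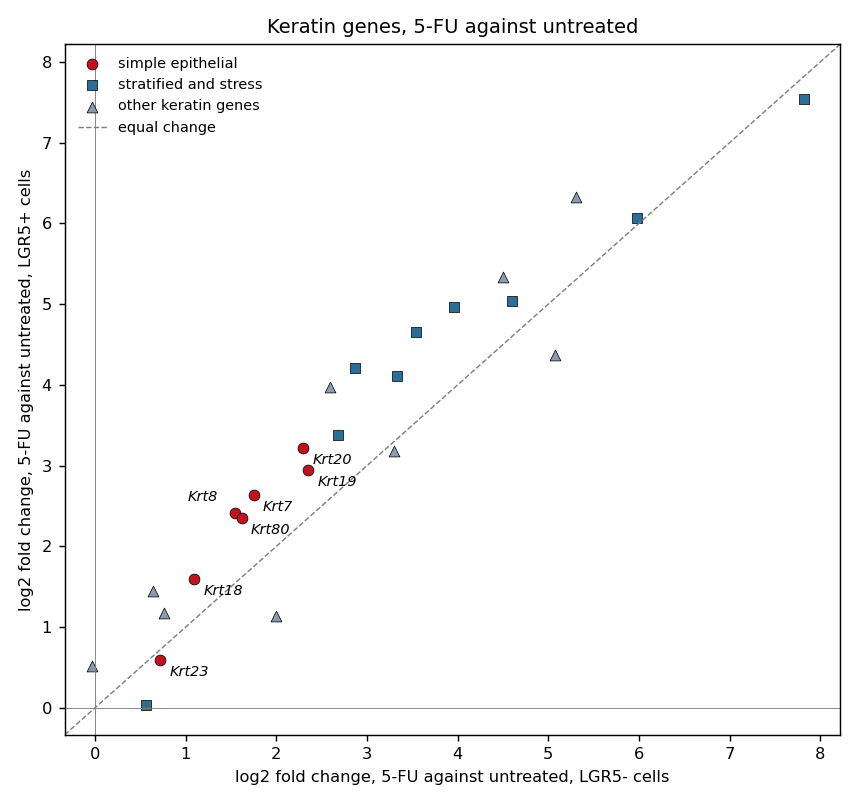
Log2 fold change after 5-FU in LGR5- (horizontal) and LGR5+ cells (vertical) for 25 tested keratin genes: 7 simple epithelial, 9 stratified and stress and 9 others; 2 genes with no untreated read in a population are left out. The dashed line marks equal change; 19 of the 25 lie above it, and the simple keratins lie between 0.59 and 3.22 on the vertical axis.

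Genes for proteins that bind keratins or anchor filaments rose in part. Of 12 genes on that list 11 were tested, and 7 were higher after 5-FU in each population, with none lower. Among all genes tested, 8.3% were called higher in LGR5- and 9.66% in LGR5+ cells. The median log2 fold change of the list was 0.84 in LGR5- and 0.81 in LGR5+ cells. *Sfn*, coding for the 14-3-3 sigma protein that binds K18 and K17, was higher by 2.08 (SE 0.25, edgeR adjusted *P* = 0.000117) in LGR5- cells and 2.86 (SE 0.26, edgeR adjusted *P* = 7.39e-06) in LGR5+ cells on the log2 scale. The small heat shock protein gene *Hspb1* was higher by 1.83 (SE 0.24) and 2.10 (SE 0.25), and *Ppl*, coding for the cytolinker periplakin, by 1.37 (SE 0.23) and 1.54 (SE 0.23). *Dsp*, the desmoplakin gene that ties filaments to desmosomes, was higher by 1.16 (SE 0.22) in LGR5- and 0.70 (SE 0.21) in LGR5+ cells. Between LGR5+ and LGR5- cells 0 of 11 were called under either treatment, as were 0% of all genes tested.

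Other intermediate filament genes moved in both directions. Of 16, 8 were tested: 3 were higher and 3 lower in LGR5- cells, and 3 higher and 2 lower in LGR5+ cells, with medians of 0.64 and 0.17. The lamin A gene *Lmna* was higher by 1.31 (SE 0.28) and 1.61 (SE 0.28) on the log2 scale in LGR5- and LGR5+ cells, and *Nes*, coding for nestin, by 1.43 (SE 0.37) and 1.84 (SE 0.38). The B-type lamin gene *Lmnb2* was lower, at -1.55 (SE 0.30) and -1.12 (SE 0.29), and so was *Vim*, the filament gene of mesenchymal cells, at -2.25 (SE 0.50) and -1.54 (SE 0.48).

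Marker lists of the cells that could carry these keratins were counted in the same way. Beside the counts here and below, 8.3% of all genes were called higher and 7.11% lower in LGR5- cells. In LGR5+ cells these shares were 9.66% and 6.37%. The summed level of the cholangiocyte list was 363 to 473 CPM in untreated and 596 to 774 CPM in treated LGR5- cells, and 476 to 524 and 778 to 872 CPM in LGR5+ cells. In each population 2 of its 6 tested genes were higher, *Cldn4* (log2 1.92 and 1.95) and *Tspan8* (0.95 and 0.94), while *Sox9*, the duct transcription factor, was not called. Of the gut and urothelial list, which K20 might accompany, 2 of 4 tested genes were higher, *Upk2* (2.08 and 1.99) and *Upk3a* (1.71 and 1.27), and the intestinal factor *Cdx2* had 0 reads in all 12 libraries. *Vil1*, the microvillus gene that made up much of this list's level, was at 23.4 to 98.3 CPM, with log2 fold changes of -0.56 and -0.54 that were not called (edgeR adjusted *P* = 0.378 and 0.388). The list's summed level was 80.0 to 97.8 CPM in untreated and 120 to 127 CPM in treated LGR5- cells, and 103 to 112 and 101 to 144 CPM in LGR5+ cells. For the alveolar type 2 list, 2 of 9 genes were higher in LGR5- and 3 of 9 in LGR5+ cells, with *Sftpd* in both (2.48 and 2.69). Its most abundant gene, *Sftpc*, had log2 fold changes of -1.26 and -1.03, not called (edgeR adjusted *P* = 0.147 and 0.228). The list summed to 3595 to 17540 CPM in untreated and 4419 to 6508 CPM in treated LGR5- cells, and to 5046 to 15880 and 3125 to 6269 CPM in LGR5+ cells.

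Markers of other cell types summed to low levels. Of the leukocyte list 1 of 3 tested genes was higher in each population, the lysosomal gene *Cd68* (log2 1.95 and 2.06). That list summed to 6.72 to 13.3 CPM in untreated and 17.7 to 42.3 CPM in treated LGR5- cells, and 6.86 to 14.2 and 25.1 to 54.9 CPM in LGR5+ cells, with *Ptprc*, which codes for CD45, at 0.164 to 2.02 CPM throughout. Endothelial genes summed to at most 4.12 CPM, with 0 of 1 tested genes called and *Cdh5* at 0 or 1 read. The fibroblast list summed to 26.2 to 60.8 CPM and had *Pdgfrb* lower in each population (-1.24 and -1.05). Most of that sum was *Dcn*, at 23.6 to 58.5 CPM. The collagen genes *Col1a2* and *Col3a1* had at most 1 and 3 reads in any library. Hepatocyte genes summed to 11.4 to 57.2 CPM, with *Afp* the 1 of 3 tested genes that was higher (1.43 and 1.31). The part of any of these cells in the keratin values was not tested.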

How the data were processed

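RNA of sorted organoid cells was amplified with a SMART-Seq kit and sequenced as paired-end reads. The authors deposited whole-number counts of reads per Ensembl gene in 12 libraries, without normalization. The submitters' processing notes name HISAT2, HISAT, TopHat2 and HTSeq and the build mm8, with no version or role. Many gene identifiers are from later annotations, so the positions given are those of GENCODE M21 (GRCm38) used for symbols and exon lengths here. Of 47069 identifiers, 46488 matched a symbol. Strand was not used in counting as far as stated.

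Counts were analyzed in R 4.3.3 with edgeR 4.0.16: filterByExpr by group (16157 genes), TMM scaling, a robust quasi-likelihood fit of 4 group means on all 12 libraries and glmQLFTest for 5 contrasts. The common dispersion was 0.0708. *P* values were adjusted by Benjamini-Hochberg over all tested genes and called under 0.05. The standard error is the log2 fold change over the square root of F. The study's methods give thresholds but no test. DESeq2 1.42.0 and other filters, scalings, sample sets and a replicate block were alternatives. Values per library are CPM after TMM; correlations used log2 CPM with a prior count of 1. Intervals of counting limits (3 reads) cover counting error only. On simulated counts for the LGR5- treatment contrast (15809 genes), 94.9% of genes changed by a log2 of 2 and 19.4% of those changed by 1 were recovered.

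All 7 members are named, with up to 3 genes of smallest *P* in either treatment comparison from each of 11 other lists and up to 3 genes most correlated with each member. Members, lists and tests were chosen with earlier results of these data known. TATAAA was searched after the windows had been read, and *Gm671*, *Gm36026*, *Gm35853*, *Dsp*, *Sox9*, *Hnf4a*, *Ptprc*, *Cdh5*, *Cdx2*, *Vil1*, *Alb*, *Sftpc* and *Epcam* were chosen after their values were seen. So were *Krt6b*, *Krt42*, *Krt76*, *Des*, *Col1a2* and *Col3a1*. Calls among general epithelial markers are not reported here.

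No label pairs the libraries. Same-numbered LGR5+ and LGR5- libraries deviated together after 5-FU (correlations 0.54, 0.20 and 0.28), beside -0.37 to 0.11 for libraries of different number. Deviations were taken from the mean of 3 libraries, so these correlations are not independent. The numbers were taken as pairs in that comparison, but pairing is not established. In the other comparisons at least 1 pair fell under 0.1.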

Additional observations from a re-analysis of the deposited data

How the results depend on the processing

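For 5-FU in LGR5- cells, 13 of 15 recomputed counts of called keratins stayed within 1.5 times the reported one; the count fell from 6 to 3 when only the 6 libraries compared were fitted, and it ranged from 3 to 7 with a library left out in turn. In LGR5+ cells all 15 stayed within that range and the count was 6 with a library left out. It was 0 under every setting for both population comparisons and the difference between responses. A filter of at least 10 reads in every library removed *Krt20* and *Krt80*, and left 5 of 5 called in LGR5- and 4 of 5 in LGR5+ cells. The replicate block left 6 of 7 called in each population and 0 of 7 elsewhere, and changed no call. Between the 5-FU-treated populations it gave edgeR adjusted *P* = 0.179 to 0.499. *Krt23* passed in LGR5- cells under RLE scaling (log2 0.74), library size only (0.75) and DESeq2 (0.74), among others. Over all genes, calls for 5-FU numbered 2489 in LGR5- and 2590 in LGR5+ cells, against 1282 and 4045 with only the libraries compared, 1562 to 3418 and 1373 to 2488 with a library left out, and 2741 and 4448 without both LGR5- replicate 3 libraries; between treated populations, 0 became 11 with no filter and 80 by DESeq2.

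Directions turned for untreated LGR5+ against LGR5- cells. With a library left out in turn, *Krt8* ranged from -0.258 to 0.254, *Krt18* from -0.0171 to 0.228 and *Krt20* from -0.198 to 0.621. *Krt8* turned without untreated LGR5- replicate 3 (-0.258) or LGR5+ replicate 1 (-0.173), *Krt18* without LGR5- replicate 3, and *Krt20* without LGR5- replicate 3 or LGR5+ replicate 2 (-0.179). With both LGR5- replicate 3 libraries out, these were -0.258, -0.0173 and -0.1996. The difference between responses of *Krt23* ranged from -0.366 to 0.089, turning without untreated LGR5+ replicate 2 (0.089) or 5-FU-treated LGR5- replicate 2 (0.0445). The cause was not tested. Leaving out a library where only 2 remain assumes they vary like the other groups. Depth limits *Krt80* and *Krt20*, with 6 to 34 reads per untreated library.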
